A study of Mus musculus with 4 samples.

Results

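The genes described here are 38 genes that copy DNA and supply its building blocks, chosen by name from the 21951 protein-coding genes of the GENCODE M21 mouse annotation. They cover origin recognition, loading and activation of the replicative helicase, polymerases and primase, the sliding clamp and its loader, single-strand binding, Okazaki fragment joining and deoxynucleotide synthesis. Nascent transcription was mapped by PRO-seq, a nuclear run-on assay that sequences RNA from engaged polymerases, in liver and yolk sac of mouse embryos on embryonic day E14.5. Each tissue had 2 libraries, and each library was made from chromatin of tissue pooled from 6 embryos. Mothers of all 4 pools were C57BL/6J, and the fathers had a mixed C57BL/6J and CAST/EiJ background, and on chromosome 12, at Dlk1/Gtl2, they carried CAST/EiJ alleles only. No treatment or mutant group was part of the design, so the comparison is between tissues. The deposited values are dREG peaks, intervals that a classifier marks as transcription start regions, each with the authors' score.

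DNA replication starts where the origin recognition complex (ORC) sits on chromatin. In G1 phase, Cdc6 and Cdt1 help ORC to load the ring of Mcm2 to Mcm7, the core of the replicative helicase. At the start of S phase, Cdc45 and the GINS complex join the ring, and polymerases follow with the clamp Pcna, which the Rfc complex loads. Many of these genes are textbook targets of E2F factors, and fetal liver is at this age a main site of red cell production by dividing erythroblasts. Yolk sac is an extraembryonic membrane of endoderm, mesoderm and blood vessels.

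Promoter sequences are shown first for the 3 genes with the highest-scoring promoter peaks over the 4 libraries, then for the 3 with the most E2F motif matches, and last for Rrm2. Rrm2 was added after its values were seen, as the gene whose peak was wider in liver than in yolk sac by the most. Rrm1, which is among the first 3, and Mcm3, which is not shown, came next by that measure. Mcm7 stands for the 6 genes with 1 E2F match, as the one with the highest scores. Each is the 250 bases before the start in RefSeq (build GRCm38.p6), written 5′ to 3′ on the strand of the gene. Capitals mark matches, on either strand, to the E2F motif (TTTCGCGC or TTTGGCGC) or to CCAAT, the motif of NF-Y, and Tyms has neither.
Rrm1, chr7:102441445-102441694, plus strand: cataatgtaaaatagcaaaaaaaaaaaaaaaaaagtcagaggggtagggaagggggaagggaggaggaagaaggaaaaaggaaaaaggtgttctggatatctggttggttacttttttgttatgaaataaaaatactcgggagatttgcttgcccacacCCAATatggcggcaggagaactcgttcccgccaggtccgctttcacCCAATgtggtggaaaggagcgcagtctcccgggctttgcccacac
Tyms, chr5:30073626-30073875, minus strand: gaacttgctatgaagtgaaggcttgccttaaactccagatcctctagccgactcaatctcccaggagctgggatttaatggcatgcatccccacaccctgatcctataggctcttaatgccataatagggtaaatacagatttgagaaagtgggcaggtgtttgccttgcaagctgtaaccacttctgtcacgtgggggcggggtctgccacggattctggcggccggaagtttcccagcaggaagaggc
Mcm10, chr2:5012792-5013041, minus strand: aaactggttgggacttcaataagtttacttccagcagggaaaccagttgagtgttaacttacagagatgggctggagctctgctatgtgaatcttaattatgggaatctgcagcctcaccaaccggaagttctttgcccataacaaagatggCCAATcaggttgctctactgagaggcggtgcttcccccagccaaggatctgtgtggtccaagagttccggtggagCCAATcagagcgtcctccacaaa
Mcm6, chr1:128359706-128359955, minus strand: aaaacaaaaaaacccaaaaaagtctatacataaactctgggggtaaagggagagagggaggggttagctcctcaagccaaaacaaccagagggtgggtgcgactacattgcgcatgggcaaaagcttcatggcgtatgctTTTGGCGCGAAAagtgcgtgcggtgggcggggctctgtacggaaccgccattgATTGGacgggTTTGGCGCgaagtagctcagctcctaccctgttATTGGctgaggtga
Mcm5, chr8:75109259-75109508, plus strand: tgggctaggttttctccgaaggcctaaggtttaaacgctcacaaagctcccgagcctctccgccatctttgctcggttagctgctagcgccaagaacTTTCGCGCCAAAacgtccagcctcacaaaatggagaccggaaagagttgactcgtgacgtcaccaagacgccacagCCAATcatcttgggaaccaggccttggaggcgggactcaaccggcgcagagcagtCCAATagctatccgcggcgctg
Mcm7, chr5:138171884-138172133, minus strand: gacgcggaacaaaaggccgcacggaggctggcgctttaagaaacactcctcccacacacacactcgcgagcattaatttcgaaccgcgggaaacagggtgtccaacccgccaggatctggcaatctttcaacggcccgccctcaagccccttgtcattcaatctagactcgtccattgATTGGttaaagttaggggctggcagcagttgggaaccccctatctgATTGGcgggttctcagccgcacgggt
Rrm2, chr12:24708004-24708253, plus strand: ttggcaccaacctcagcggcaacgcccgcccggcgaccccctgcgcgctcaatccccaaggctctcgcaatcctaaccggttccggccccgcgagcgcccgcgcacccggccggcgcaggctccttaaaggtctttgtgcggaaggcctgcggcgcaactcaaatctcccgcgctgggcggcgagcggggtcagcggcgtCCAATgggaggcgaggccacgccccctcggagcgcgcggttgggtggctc

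Motifs were counted in RefSeq windows of 250 bases before to 50 after a start, and 31 of the 38 genes matched the table. The 8-base E2F motif was found in 8 of these 31 windows (25.8%), at Orc1, Cdt1, Mcm3, Mcm5, Mcm6, Mcm7, Rfc3 and Lig1. It was found in 0.813% of all 32851 windows of the table. Among 9304 genes with a promoter peak in all 4 libraries it was found in 1.69%. Mcm6 had 3 matches, 2 of which overlapped, and Mcm5 had 2 overlapping matches. At Mcm7 the single match lay past the start, at bases 17 to 24 after it, where it overlapped a CCAAT match, and is not in the stretch shown. CCAAT was found in 20 of 31 windows (64.5%), against 37.4% of all windows and 38.4% of genes with a peak in all 4 libraries. The share with the GC box GGGCGG was 71.0%, against 35.7% and 68.3%, and the share with the ETS motif CCGGAAG was 38.7%, against 8.86% and 19.8%. The E-box CACGTG was in 12.9% of windows, against 7.15% and 10.7%, and the TATA motif TATAAA was in 1 of 31 (3.23%), against 13.6% and 6.33%. Median GC content was 60%, and the median ratio of observed to expected CpG was 0.875, against 0.384 in all windows and 0.788 in genes with a peak in all 4 libraries. A match describes letters in a window and says nothing of binding.

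All 38 genes had a promoter peak in both liver libraries, and 37 and 38 had one in yolk sac libraries 1 and 2. A promoter peak was any peak that overlapped the 500 bp either side of an annotated start of the gene. Over all protein-coding genes the shares were 56.1% and 57.9% in liver and 63.8% and 62.4% in yolk sac. A peak in all 4 libraries was found at 37 of the 38 genes and at 53.8% of all protein-coding genes. No gene of the set was called in both libraries of one tissue and neither of the other, where 1.01% of all genes were called in liver only and 5.25% in yolk sac only. The gene without a peak in 1 library was Rfc2, a subunit of the clamp loader, on chromosome 5 (134581366 to 134601805). Its peak was 852 bp wide in both liver libraries and 402 bp wide in yolk sac library 2, with scores at the 38.8, 47.0 and 22.2 percentiles of those lists. In yolk sac library 1 the nearest peak lay 3264 bp from any Rfc2 start. In these bulk samples, fewer cells that use a gene and less transcription per cell cannot be told apart.

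The 2 liver lists held 24863 and 24333 peaks and the 2 yolk sac lists 50525 and 43055, and the read depth behind them is unknown. Erythroid marker genes had promoter peaks at 7 of 7 in each liver library and at 1 of 7 in each yolk sac library. Mesenchymal markers had them at 4 and 6 of 7 in liver and 7 of 7 in each yolk sac library. Yolk sac endoderm markers had them at 5 and 4 of 7 in liver and 7 of 7 in each yolk sac library, and hepatic markers at 5 of 7 in each liver library and 4 of 7 in each yolk sac library. Endothelial markers had them at 3 and 4 of 5 in liver and 5 of 5 in each yolk sac library, and macrophage markers at 3 of 5 in each liver library and at 5 and 4 of 5 in yolk sac. The 6 erythroid markers with a peak in liver only were Alas2, Epb42, Ermap, Gata1, Klf1 and Slc4a1. Of the hepatic markers, C3 and Cps1 had a promoter peak in liver only, Serpina1a had none in any library and Fgb had one in yolk sac only. The part of these differences in the results on replication genes was not tested.

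The promoter peaks of replication genes were wider in liver than in yolk sac. Over the 37 genes with a peak in all 4 libraries, the median width was 1952 and 1752 bp in the liver libraries and 1552 and 1302 bp in the yolk sac libraries, or 1852 ± 141 against 1427 ± 177 bp (SD, n = 2). Over all 11805 genes with a peak in all 4 libraries, called ranked genes from here on, the medians were 1702, 1552, 1752 and 1602 bp in the same order. Where a gene had more than 1 promoter peak, the highest-scoring one was used. The replication genes were thus above the median of all ranked genes in both liver libraries and below it in both yolk sac libraries. The yolk sac mean was below the liver mean at 32 of the 37 genes and at 42.1% of ranked genes. The median ratio was a 1.21-fold greater width in liver, or -0.27 for yolk sac over liver on the log2 scale, against 0.05 for all ranked genes.

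For a single gene, the exact two-sided permutation test over the 6 assignments of 4 libraries cannot give a p below 0.33, which it reaches where the tissues do not overlap. By that measure both liver peaks were wider than both yolk sac peaks at 19 of the 37 genes (51.4%), against 20.9% of ranked genes. The reverse held at 1 of the 37, against 34.5% of ranked genes. Widths lie on a 50 bp grid, and the 2 libraries of a tissue differed at the median replication gene by 250 bp in liver and 200 bp in yolk sac. Counting only gaps of over 100 bp between tissues, a setting added after the data were seen, left 14 genes wider in liver and 1 wider in yolk sac, against 14.3% and 26.8% of ranked genes. The genes no longer counted were Mcm4, Mcm5, Prim2, Rpa1 and Lig1. Leaving out liver replicate 2 or yolk sac replicate 1 gave a first count of 30, against 38.8% and 37.7% of ranked genes, and leaving out either of the other libraries gave 20, against 22.5% and 22.7%. Without liver replicate 1 or yolk sac replicate 2, 4 genes were wider in yolk sac, against 52.3% and 51.2% of ranked genes.

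**Figure D1:**
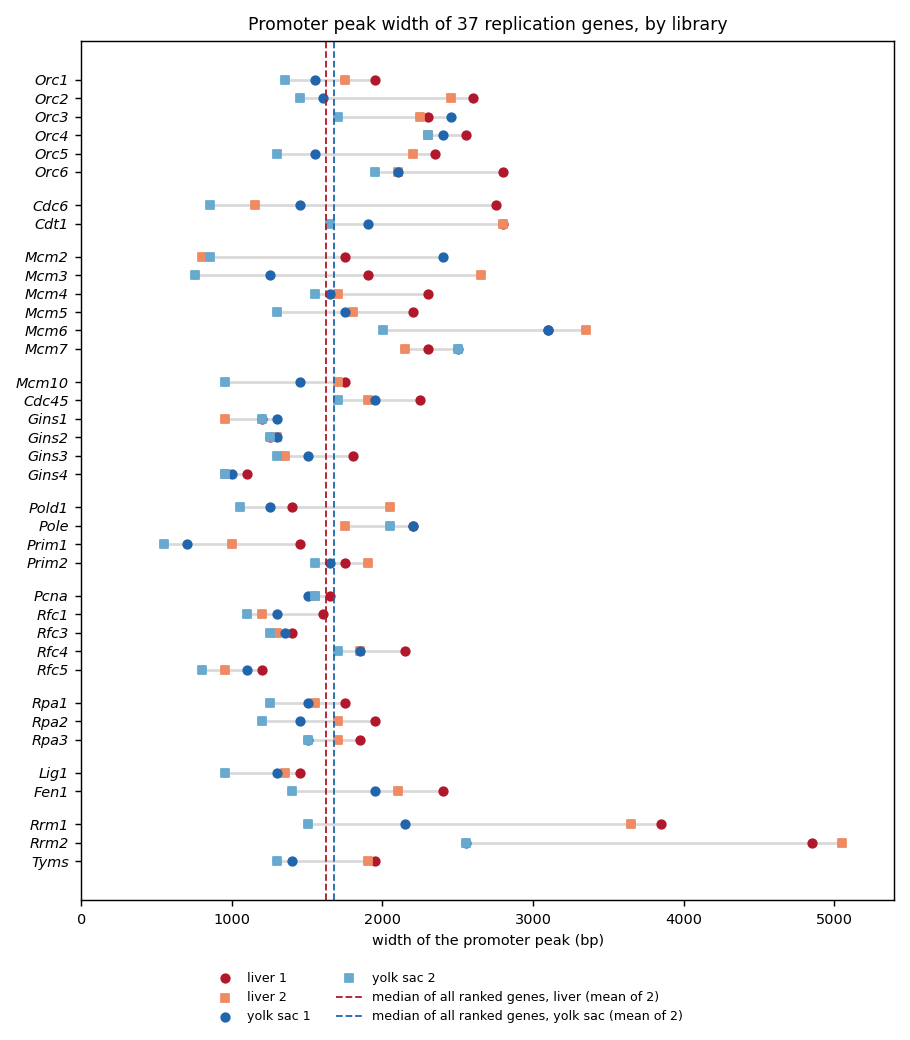
Width of the promoter peak in bp (x axis) at 37 replication genes, grouped by role from ORC at the top to nucleotide supply at the bottom, with 1 point per library and a grey bar from the lowest to the highest value. Dashed lines are the median over all 11805 ranked genes, as the mean of 2 libraries. At Rrm2, the liver points lie at 4852 and 5052 bp and both yolk sac points at 2552 bp.

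**Figure D2:**
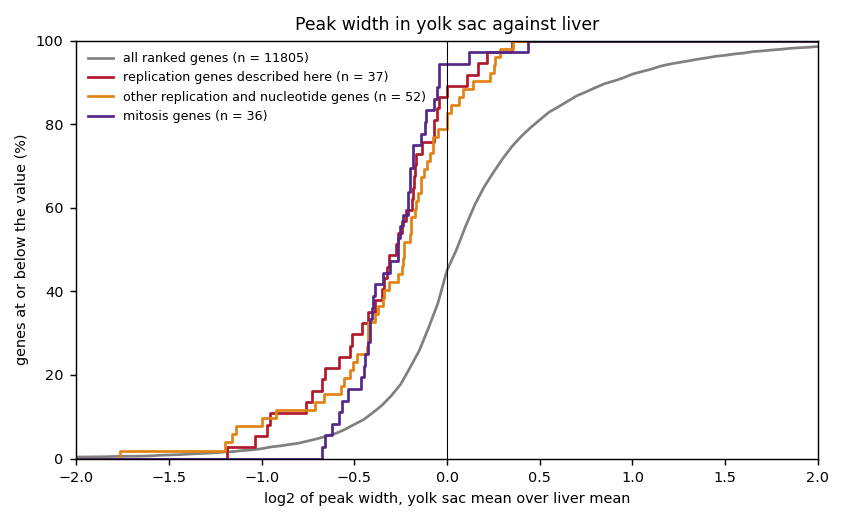
Cumulative share of genes (y axis, percent) by the log2 ratio of peak width, yolk sac mean over liver mean (x axis), where values below 0 are wider in liver. At the median, the curves of the 37 replication genes, 52 other replication genes and 36 mitosis genes lie left of the curve of all 11805 ranked genes. Below -1.18, the lowest ratio of the 37 (Mcm3), the curve of the 37 is at 0 and lies under that of all ranked genes.

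Of the 9 roles, nucleotide supply had the widest median peaks in liver and the lowest median log2 ratio, -0.96. Rrm2 encodes the small subunit of ribonucleotide reductase, which makes deoxynucleotides. On chromosome 12 (24708241 to 24714146), its peak spanned 4852 and 5052 bp in liver and 2552 bp in each yolk sac library, a 1.94-fold difference. Rrm1 encodes the large subunit (chromosome 7, 102441695 to 102469771) and had peaks of 3852 and 3652 bp in liver and 2152 and 1502 bp in yolk sac, 2.05-fold wider in liver. Tyms, thymidylate synthase (chromosome 5, 30058202 to 30073617), had peaks of 1952 and 1902 bp in liver and 1402 and 1302 bp in yolk sac. In all 3 the tissues did not overlap.

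Among the licensing genes the picture was mixed. Cdt1, the MCM loader that is destroyed once S phase begins (chromosome 8, 122568015 to 122573554), had peaks of 2802 bp in both liver libraries and 1902 and 1652 bp in yolk sac. Its partner Cdc6 ranged from 2752 to 1152 bp between the liver libraries, and its tissues overlapped. In ORC, Orc2 had 2602 and 2452 bp in liver against 1602 and 1452 bp in yolk sac, and Orc5 had 2352 and 2202 against 1552 and 1302 bp. Orc1 was also wider in liver without overlap, while Orc3, Orc4 and Orc6 overlapped.

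In the MCM ring, 3 of 6 subunits were wider in liver and 1 was wider in yolk sac. Mcm3 (chromosome 1, 20802968 to 20820312) had 1902 and 2652 bp in liver and 1252 and 752 bp in yolk sac, 2.27-fold wider in liver, the largest ratio of the 37. Mcm4 and Mcm5 were wider in liver without overlap, by 1.25-fold and 1.31-fold, but the gap between tissues was no more than 100 bp at either. Mcm7 (chromosome 5, 138164583 to 138172422) was the 1 gene wider in yolk sac, with 2302 and 2152 bp in liver and 2502 bp in each yolk sac library. Its peak also overlaps the start window of Ap4m1, which encodes an adaptor complex subunit. The Mcm6 peak was among the widest, with 3102 and 3352 bp in liver and 3102 and 2002 bp in yolk sac, and its tissues overlapped. At Mcm2 the values cannot be compared directly, because the highest-scoring peak in yolk sac library 1 was a second one within the gene, 2402 bp wide and well inside it (chromosome 6, 88889051 to 88891452, where the gene spans 88883474 to 88898780). It counts among the genes with overlap, and without it 19 of 36 genes were wider in liver and 1 in yolk sac, against 20.8% and 34.3% of ranked genes whose 4 peaks share at least 1 base.

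The smallest median log2 ratios were those of helicase activation, -0.12, and of the clamp and its loader, -0.17. Of the 6 helicase activation genes only Mcm10, which helps to switch the loaded helicase on, was wider in liver without overlap, at 1752 and 1702 against 1452 and 952 bp. Mcm10 had 1 promoter peak in each liver library but 3 in each yolk sac library, of which only the highest-scoring was measured. Gins2 had nearly the same width in every library, 1252 and 1302 bp in each tissue. Gins1 and Gins4 were among the 4 narrowest genes, with 952 to 1302 bp. Gins1 had 2 promoter peaks in each library. The highest-scoring one, which was measured, lay at a later annotated start (chromosome 2, 150909594, where the gene begins at 150905400). All 5 clamp and clamp loader genes with a peak in all libraries overlapped between tissues. Pcna, the clamp itself, was 1652 and 1552 bp wide in liver and 1502 and 1552 bp in yolk sac.

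Of 9 polymerase, primase, RPA and Okazaki fragment genes, all but Pole were wider in liver without overlap. At Prim2, Rpa1 and Lig1, however, the gap between tissues was no more than 100 bp, less than the usual difference between replicates. Pold1, the catalytic subunit of polymerase delta, had 1402 and 2052 bp in liver and 1252 and 1052 bp in yolk sac. Prim1, the catalytic primase subunit, had the lowest mean width over the 4 libraries, with 1452 and 1002 bp in liver and 702 and 552 bp in yolk sac. Prim2 was also wider in liver, while Pole, which encodes the leading-strand polymerase, had 2202 and 1752 bp in liver and 2202 and 2052 bp in yolk sac. All 3 subunits of the single-strand binding protein RPA were wider in liver without overlap, with Rpa2 at 1952 and 1702 against 1452 and 1202 bp. The same was found at Fen1, the flap nuclease, with 2402 and 2102 against 1952 and 1402 bp, and at Lig1, the ligase that seals Okazaki fragments, with 1452 and 1352 against 1302 and 952 bp.

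The difference in width lay mainly at the edge inside the gene. The reference start of a gene was the annotated start of a protein-coding transcript nearest the mean centre of its peaks. From it, peaks reached a median of 1214 and 913 bp into the gene in liver and 753 and 624 bp in yolk sac, or 1064 ± 213 against 688.5 ± 91.2 bp (SD, n = 2). The reach upstream was 755 and 750 bp in liver and 838 and 734 bp in yolk sac, and these values overlapped. The inner edge lay farther into the gene in both liver libraries than in both yolk sac libraries at 25 of 37 genes (67.6%), against 22.4% of the 11751 ranked genes with such a measure. It lay farther in yolk sac at 1 gene, Mcm7, against 31.4%, and at 4 genes without yolk sac replicate 2 (45.9%) or 2 without liver replicate 1 (46.7%). At the upstream edge the counts were 8 and 4 of 37, against 16.1% and 31.4% of ranked genes.

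Single genes show this directly. The Rrm1 peak ended 3307 and 3207 bp inside the gene in liver and 1457 and 1007 bp in yolk sac, while upstream it began 544 and 444 bp before the start in liver and 694 and 494 bp in yolk sac. At Tyms the upstream edge was at 376 bp in all 4 libraries, and the inner edge was at 1575 and 1525 bp in liver and 1025 and 925 bp in yolk sac. Cdt1 reached 1687 bp inside the gene in both liver libraries and 587 and 537 bp in yolk sac. In Orc2 the inner edge was at 1774 and 1624 against 724 and 624 bp. Rrm2 differed at both edges, with 2190 and 2240 bp upstream in liver against 1690 bp in each yolk sac library. Its inner edge lay at 2661 and 2811 bp in liver against 861 bp in each yolk sac library. At Lig1, whose reference start is one of its later annotated starts, the inner edge lay at 126 bp in every library. The difference there was at the other edge, at 1325 and 1225 bp in liver and 1175 and 825 bp in yolk sac. Both yolk sac peaks lay inside both liver peaks at 10 of 37 genes (27.0%), against 11.9% of ranked genes, and the reverse held at 1, against 23.0%.

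**Figure D3:**
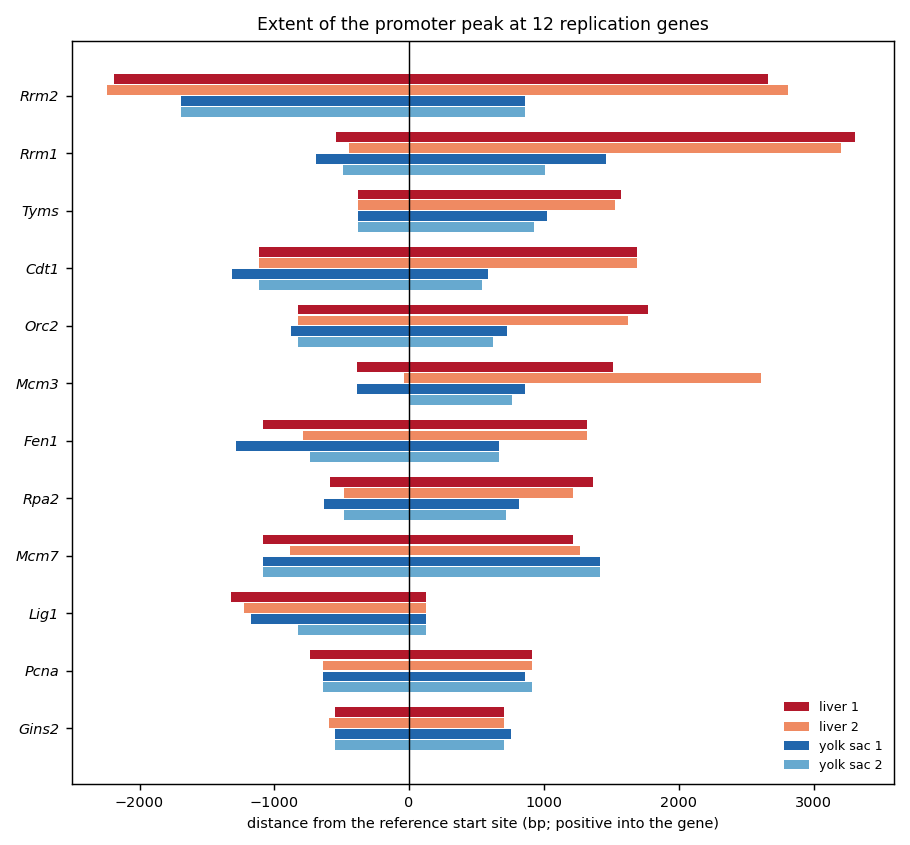
Extent of the promoter peak around the reference start (x axis, bp, positive into the gene) at 12 replication genes, with 1 bar per library. The genes were chosen after their values were seen, to show genes with and without a difference. In the upper 8 genes the red and orange liver bars reach farther to the right than the blue yolk sac bars.

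**Figure D4:**
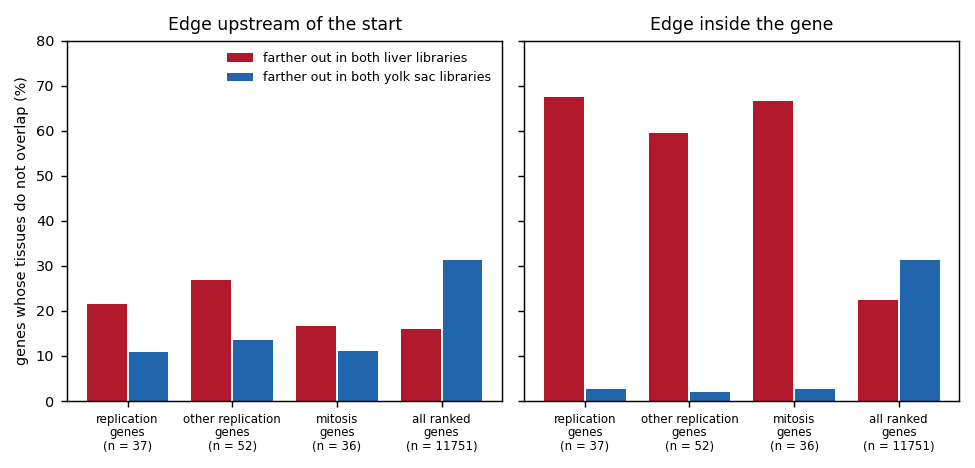
Share of genes (y axis, percent) whose upstream edge (left) or inner edge (right) lay farther from the start in both liver libraries (red) or in both yolk sac libraries (blue). For the 37 replication genes the inner edge was farther in liver at 67.6% and in yolk sac at 2.70%.

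Some peaks also overlap the 500 bp window of another protein-coding gene. This was so at 12 of the 37 genes (32.4%), against 23.7% of ranked genes. The pairs were Orc1 with Prpf38a, Orc3 with Rars2, Orc4 with Mbd5, Orc6 with Vps35, Mcm4 with Prkdc, Mcm7 with Ap4m1, Cdc45 with Ufd1, Pole with Pxmp2, Rpa1 with Smyd4, Lig1 with Zswim9 and Fen1 with Tmem258. Rpa3 shared its peak with Umad1 and Gm45062. At these genes the width and the score belong to both promoters. Among the 25 genes that share no peak, 22 had the lower mean width in yolk sac, with a median log2 ratio of -0.39. Among the 12 others 10 did, with a median of -0.25. For all ranked genes the counts were 3515 of 9013 that share no peak, with a median of 0.085, and 1456 of 2792 that share one, with a median of -0.023.

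Scores, unlike widths, showed no common direction. Scores were compared as promoter ranks, the percentile of the authors' score among the 11805 ranked genes, so that lists of unequal length are ranked over the same genes. The median promoter rank of the 37 genes was 43.0 and 53.1 in liver and 50.4 and 44.9 in yolk sac, around the value of 50 that all ranked genes have by construction. Within the whole lists their median percentile was 64.2 and 70.5 for liver and 73.0 and 70.9 for yolk sac, against 68.5, 68.6, 72.8 and 73.4 for all ranked genes. Both liver ranks were above both yolk sac ranks at 11 of 37 genes (29.7%), against 30.9% of ranked genes, and both yolk sac ranks were above at 13 (35.1%), against 25.7%. By percentiles within the whole lists the counts were 7 and 13, against 22.1% and 34.4% of ranked genes. Without yolk sac replicate 1 the first count was 18 of 38, against 41.8%. Without Mcm2, whose 4 peaks do not share a base, the counts were 11 and 12 of 36, against 31.6% and 24.7% of the 10861 ranked genes whose peaks do. Single ranks are imprecise. The 2 libraries of a tissue differed at the median replication gene by 12.3 points in liver and 11.8 in yolk sac, and the tissue means by 20.9. Across the 37 genes, Spearman's rho was 0.79 between the liver libraries, 0.71 between the yolk sac libraries and 0.43 to 0.54 between tissues. For all ranked genes it was 0.68, 0.70 and 0.24 to 0.36. These values are across genes, which are not independent replicates.

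**Figure D5:**
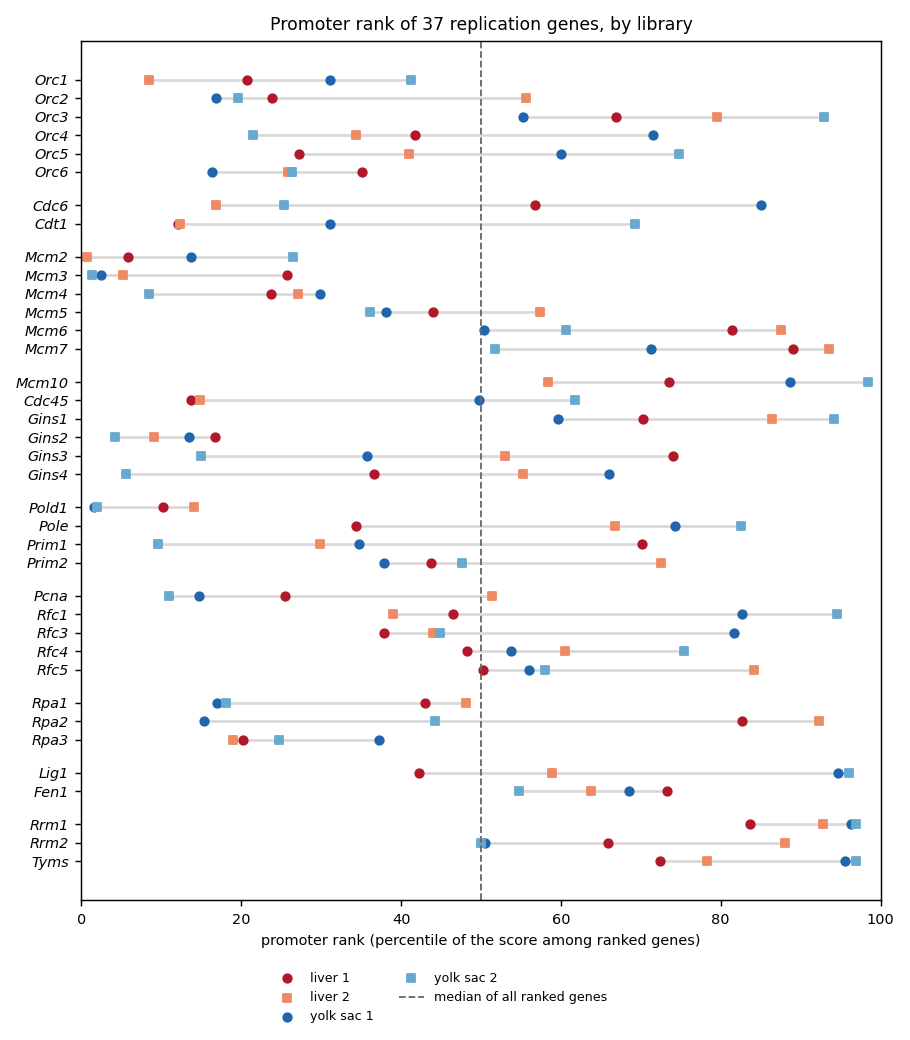
Promoter rank (x axis, percentile of the score among 11805 ranked genes) at 37 replication genes, grouped by role, with 1 point per library and a grey bar from the lowest to the highest value. The dashed line at 50 is the median of all ranked genes. Points of both tissues spread over nearly the whole axis.

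The 6 highest mean ranks were those of Rrm1, Tyms, Mcm10, Gins1, Mcm7 and Orc3. Rrm1 ranked at 83.7 and 92.8 in liver and 96.3 and 97.0 in yolk sac, and Tyms at 72.4 and 78.3 in liver and 95.5 and 96.9 in yolk sac. Both had the higher rank in yolk sac and the wider peak in liver, whereas Rrm2 ranked higher in liver, at 65.9 and 88.0 against 50.47 and 50.03. Mcm10 ranked at 73.6 and 58.4 in liver and 88.7 and 98.5 in yolk sac, and it had 1 promoter peak in each liver library and 3 in each yolk sac library. Gins1, measured at its later start, and Orc3 ranked above 50 in every library, and their tissues overlapped.

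The 6 lowest mean ranks were those of Pold1, Mcm3, Gins2, Mcm2, Mcm4 and Rpa3. Pold1 ranked at 10.2 and 14.0 in liver and 1.57 and 1.90 in yolk sac, and Mcm3 at 25.8 and 5.26 in liver and 2.46 and 1.29 in yolk sac. Mcm2 ranked at 5.81 and 0.733 in liver and 26.5 in yolk sac library 2. Its 13.7 in yolk sac library 1 belongs to the other peak, inside the gene. No rank of Gins2, Mcm4 or Rpa3 exceeded 37.2. Subunits of one complex thus did not rank alike: within the MCM ring, Mcm7 ranked at 89.1 and 93.5 in liver, and Mcm6 at 81.4 and 87.6.

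The largest rank gaps in favour of liver were at Rpa2, Gins3, Mcm7, Mcm6 and Rpa1. Rpa2, the middle subunit of RPA (chromosome 4, 132768332 to 132778752), ranked at 82.6 and 92.3 in liver and 15.4 and 44.2 in yolk sac. Gins3 had ranks of 74.0 and 53.0 in liver and 35.8 and 15.0 in yolk sac. In yolk sac, Mcm7 ranked at 71.2 and 51.7, and Mcm6 at 50.4 and 60.7. Rpa1, the large subunit that contacts DNA, ranked at 43.0 and 48.1 against 16.9 and 18.1. At each of these genes the tissue means lay farther apart than the 2 libraries of liver or those of yolk sac did.

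In favour of yolk sac, the gaps were largest at Rfc1, Lig1, Cdc45, Cdt1 and Orc5. Rfc1, the large subunit of the clamp loader (chromosome 5, 65261850 to 65335670), ranked at 46.5 and 39.0 in liver and 82.7 and 94.5 in yolk sac. Lig1 (chromosome 7, 13277283 to 13311433) ranked at 42.3 and 58.9 in liver and 94.7 and 96.0 in yolk sac. Cdc45, the helicase cofactor, ranked at 13.8 and 14.8 against 49.7 and 61.7. Cdt1 had 12.1 and 12.3 in liver but 31.1 and 69.3 in yolk sac, so that its yolk sac replicates lay as far apart as the tissue means. Orc5 had 27.2 and 41.0 against 60.0 and 74.8. Lig1, Cdt1 and Orc5 were at the same time wider in liver, though at Lig1 the gap in width between tissues was no more than 100 bp.

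Peaks inside the gene and away from its starts were few. Both liver libraries had more of them than both yolk sac libraries at 3 of the 38 genes (7.89%), against 3.48% of all protein-coding genes. The reverse held at 3 genes, against 17.4%. The first were Orc5, Gins2 and Rfc2, and the second were Gins1, Rfc1 and Rrm2, all named after their values were seen. At Rrm2 the liver promoter peaks reached 2661 and 2811 bp into the gene, and the yolk sac ones 861 bp. Whether its 1 further peak in each yolk sac library lies in the stretch that the liver promoter peaks cover was not tested. Prim2, a long gene (chromosome 1, 33453810 to 33669795), had the most, with 6 and 5 in liver and 6 and 2 in yolk sac.

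Other genes of the pathway, 53 in a list of further replisome, polymerase and nucleotide genes, gave like values. A promoter peak in all 4 libraries was found at 52 of them, and Impdh2, a guanine nucleotide synthesis gene, had none in liver library 1. Both liver peaks were wider at 29 of the 52 and both yolk sac peaks at 4, against 20.9% and 34.5% of ranked genes. The inner edge lay farther in liver at 31 and in yolk sac at 1, against 22.4% and 31.4%. At Mcm9, Pola2 and Rnaseh2b the 4 peaks do not share a base, so that these values do not compare 1 promoter. Without these 3 genes the counts were 27 and 4 of 49 for width and 29 and 1 for the inner edge. Median width was 1927 and 1627 bp in liver and 1552 and 1402 bp in yolk sac. Of the 25 replisome and initiation factors in the list, 20 were wider in liver and 0 in yolk sac, against 2 and 1 of the 8 polymerase and primase subunits and 7 and 3 of the 19 nucleotide genes. For promoter rank 12 were above in liver and 15 in yolk sac, against 30.9% and 25.7%. Ctps, CTP synthase, ranked at 89.6 and 80.8 in liver and 23.3 and 9.95 in yolk sac. Rnaseh2c, an RNase H2 subunit, ranked at 85.5 and 40.6 in liver and 0.343 and 0.106 in yolk sac, and Pole3 at 89.2 and 64.6 against 38.5 and 23.8. The largest gaps the other way were at Shmt1, Dna2 and Mtbp. Shmt1, a folate cycle enzyme, ranked at 10.2 and 8.94 in liver and 97.1 and 43.2 in yolk sac. Dna2, a flap nuclease and helicase, ranked at 51.7 and 42.6 against 88.1 and 91.8, and Mtbp, a replication initiation factor, at 25.5 and 19.9 against 60.0 and 57.2. Of the 52 genes, 19 (36.5%) had a peak that also overlaps the window of another protein-coding gene, against 23.7% of ranked genes. Among them were Rnaseh2c with Kat5, Pole3 with 4933430I17Rik and Mtbp with Mrpl13, so that these scores belong to both promoters.

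Mitosis genes, taken as a second proliferation list, had wider liver peaks too. Of 36 such genes, 23 were wider in both liver libraries and 2 in both yolk sac libraries, against 20.9% and 34.5% of ranked genes. The inner edge lay farther in liver at 24 and in yolk sac at 1, against 22.4% and 31.4%. Their median promoter rank was 50.7 and 36.3 in liver and 66.7 and 61.0 in yolk sac, whereas the median ranks of the replication genes overlapped between tissues. By gene, 8 of the 36 ranked above in both liver libraries and 11 in both yolk sac libraries, against 30.9% and 25.7% of ranked genes. For the replication genes these counts were 11 and 13 of 37. The difference between these lists was not tested. The E2F motif was found in 1 of 29 mitosis gene windows (3.45%) and in 5 of 45 windows of the other replication genes (11.1%).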

How the data were processed

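PRO-seq peak lists were analysed for 2 liver and 2 yolk sac libraries. Per the submitters' processing notes, Bowtie2, bedtools and the mm10 build were used, with no version or role given. The deposited score of each peak has no unit and was made by the authors, and no scaling between libraries is stated. Peak positions are printed 1-based in mm10, which is GRCm38. Each library had its own list, and the dREG version and filters are not given in the sources used here. No read counts were used and the depth is unknown, so intervals for counting error cannot be given.

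Genes and starts came from GENCODE M21 (GRCm38). Scripts in Python 3.11.15 (pandas 2.3.3, numpy 2.4.6) computed promoter peaks (overlap of at least 1 bp with 500 bp either side of any transcript start), widths, edges and ranks. Every comparison is of 2 libraries against 2, for which the smallest exact permutation p is 0.33. The labels do not say that replicates came from separate matings, so the spread between them may be technical. Named genes are those called in fewer than 4 libraries, the 6 highest and 6 lowest ranks, the 5 largest gaps per direction in rank and width, the 4 widest and 4 narrowest, genes sharing a peak, and for the other replication genes the 3 largest rank gaps per direction. Further members are named to describe their role and were picked with their values seen. The edges, the genes in the map, the 100 bp gap and the limit to genes whose 4 peaks share a base were added after seeing the data. Members and lists were chosen with earlier results of these data known. Scripts were tested on simulated lists with planted width differences.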

Additional observations from a re-analysis of the deposited data

How the results depend on the processing

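Alternatives were a window of 250 or 1000 bp, starts of protein-coding transcripts only, peak midpoints inside the window, the higher-scoring 50% of each list, lists cut to 24333 peaks each, the widest peak per gene, percentiles within whole lists, genes that share a peak left out, each library left out, and a replicate block. Percentiles within whole lists and the replicate block leave the median width as it is. In each of the others the liver excess in median width (-425 bp, yolk sac minus liver) kept its sign. It ranged from -550 to -300 bp with a library left out. No gene's difference in width or rank among those tracked changed sign where it could be measured. The tracked genes were picked for their large gaps, which makes a change of sign less likely. Cdc45, Cdt1 and Mcm3 had no value in the higher-scoring 50%, and Lig1, Mcm6, Mcm3 and Rrm1 had none with midpoints inside the window.

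In the higher-scoring 50% the share with a promoter peak was higher in yolk sac by 10.5 points, where the yolk sac shares of all protein-coding genes were 54.6% and 53.0% and their liver shares 43.1% and 43.2%. The median rank was higher by 10.03, and 5 genes were yolk-sac-only (Cdc45, Cdt1, Mcm2, Orc1 and Rpa3), against 8.84% of all genes. The genes above in liver then numbered 6 by rank and 12 by width of 25 measured, against 26.1% and 23.5%. With equal list lengths the share was lower in yolk sac (-9.21 points), and 3 genes were liver-only (Mcm3, Pold1 and Rfc2), against 3.01% of all genes. With midpoints inside the window the share was 13.2 points higher in yolk sac, 5 genes (Mcm3, Mcm6, Pold1, Rrm1 and Tyms) were yolk-sac-only, against 5.82% of all genes, and 8 of 29 ranked above in yolk sac, against 25.4%. Of the 25 genes that share no peak, 8 ranked above in yolk sac, 0 were wider there and 0 reached farther inward there. The shares of all ranked genes, sharing or not, were 25.7%, 34.5% and 31.4%. The widest peak per gene gave 2 wider and 2 reaching farther in yolk sac, against 35.6% and 31.5%. Within whole lists, 7 ranked above in liver and 13 in yolk sac, against 22.1% and 34.4%. Width as a percentile over the same genes was a setting added after the data were seen. By it 31 were wider in liver, against 39.7% of ranked genes, and 1 in yolk sac, against 29.0%. Of the values of single genes, 190 moved by less than the replicate SD and 14 by more, 8 of these as percentiles within whole lists. The 190 include values that could not move, 16 with the replicate block and 11 with genes that share a peak left out. With 2 libraries per tissue, leaving 1 out also moves a mean width by less than its SD by construction. The count of 190 is thus no measure of robustness.

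With a library left out, the genes wider in liver numbered 20 to 30 (background 22.5% to 38.8%) and in yolk sac 1 to 4 (36.1% to 52.3%). Those reaching farther inward numbered 25 to 33 in liver (24.2% to 38.4%) and 1 to 4 in yolk sac (33.5% to 46.7%). Those ranking above numbered 14 to 18 in liver (41.8% to 43.1%) and 13 to 17 in yolk sac (35.0% to 37.04%), of 37 or 38. Those called in 1 tissue only numbered 0 to 1 (Rfc2, without yolk sac replicate 2). The share of all protein-coding genes called in 1 tissue only was not counted with a library left out, so this number has no background. Whether same-numbered libraries of the tissues came from the same embryos is not known. Their deviations from the tissue means correlated at -0.012 for rank and 0.0026 for width over ranked genes. A value near 0 from 2 libraries per tissue cannot settle that question. The replicate block gave 27 genes wider in liver and 3 in yolk sac, against 29.7% and 42.2%, and its smallest p is 0.5. With 2 libraries per tissue and unknown depth, a missing peak such as that of Rfc2 cannot be told from one below detection.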
